A study of Mus musculus with 16 samples.

Results

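The transcripts of 8 genes of the trophoblast lineage, called trophoblast lineage factors, were followed in RNA sequencing of mouse embryonic stem cells (ES) with or without an intact Taf4a gene and of the embryoid bodies made from them. The members were Cdx2, Eomes, Elf5, Tfap2c, Gata2, Gata3, Hand1 and Ascl2, picked by gene name from a table of 27807 genes, and each name matched 1 row. All 8 passed the filter on low values, as did 16124 genes in all.

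The trophoblast is the outer cell lineage of the blastocyst, which implants and forms most of the placenta. Cdx2, Eomes, Elf5, Gata3 and Tfap2c encode transcription factors that set up or maintain the trophectoderm and the trophoblast stem cells derived from it. Gata2, Hand1 and Ascl2 encode factors used as these cells mature into giant cells and the other layers of the placenta. Embryonic stem cells come from the inner cell mass and normally give little trophoblast. Most of these genes also act elsewhere in the embryo, with Eomes in the primitive streak, Cdx2 in the posterior embryo, Tfap2c in germ cells, Gata2 and Gata3 in blood and nerve cells, and Hand1 in mesoderm and heart, so that their transcripts alone do not name a cell type.

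The product of Taf4a is part of TFIID, a complex that places the TATA-binding protein at promoters. The wild-type libraries (WT, Taf4+/+) and the libraries homozygous for a germline Taf4a null allele (KO, Taf4-/-) were from ES lines grown out of blastocysts of heterozygous crosses, 2 lines per genotype, on inactivated embryonic fibroblast feeders with leukaemia inhibitory factor. Each genotype was sampled as ES cells, as embryoid bodies before retinoic acid (EB4), a day after its addition (EB5) and at the later stage labelled neural precursor cells (EB8). This gave 8 groups of 2 libraries. The labels do not tie a replicate number to a line, so the p-values below measure the spread between these libraries.

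Depth ran from 32631020 to 40711826 reads in the ES libraries and from 22442118 to 27685306 in the embryoid bodies, so that depth and the step out of the ES state cannot be told apart. The count over the whole Taf4a gene was not lower in KO libraries, at 1973 to 2400 normalised counts against 1591 to 1959.6 in WT libraries, and it does not test an allele that lacks only exons 11 and 12. Some libraries stood apart from others of their genotype. The Y-linked Eif2s3y was at 3.99 normalised counts in WT ES replicate 2, against 2248 in WT ES replicate 1 and 841 to 1323 in the WT embryoid bodies. Where WT ES cells are compared, values without WT ES replicate 2 are given for the members and the feeder list only. The ES values of the other lists include it. In the KO libraries Eif2s3y was at 1.94 to 92.1, so that in the embryoid bodies Y-linked expression and genotype cannot be told apart. The genes of chromosome X had a median log2 level, relative to each gene's mean, of 0.35 to 0.54 in the KO replicate 2 libraries. This level was 0.47 in WT ES replicate 2 and −0.25 to −0.16 in the other libraries. The genes of chromosome 8 had a median log2 level, relative to each gene's mean, of 0.40 to 0.41 in the replicate 1 embryoid bodies of WT and of −0.13 to −0.11 in those of replicate 2. No member lies on chromosome 8 or X, and the part of these differences in the values of the members was not tested. The neural marker Pax6 was at 5447 and 5317 normalised counts in WT EB8 and at 838 and 361 in KO EB8, so that among the libraries labelled as neural precursor cells those of KO held fewer Pax6 transcripts. In bulk RNA, fewer cells of a type and less RNA per cell cannot be told apart.

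All values below are normalised counts, namely reads divided by the size factor of the library, unless a change is named as log2. Changes are on the scale of log2(normalised count + 1), with a standard error (SE) from limma over all 16 libraries, and adjusted p-values are Benjamini-Hochberg values from limma over 16124 genes unless edgeR or DESeq2 is named. A gene was called at an adjusted p under 0.05.

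**Figure D1:**
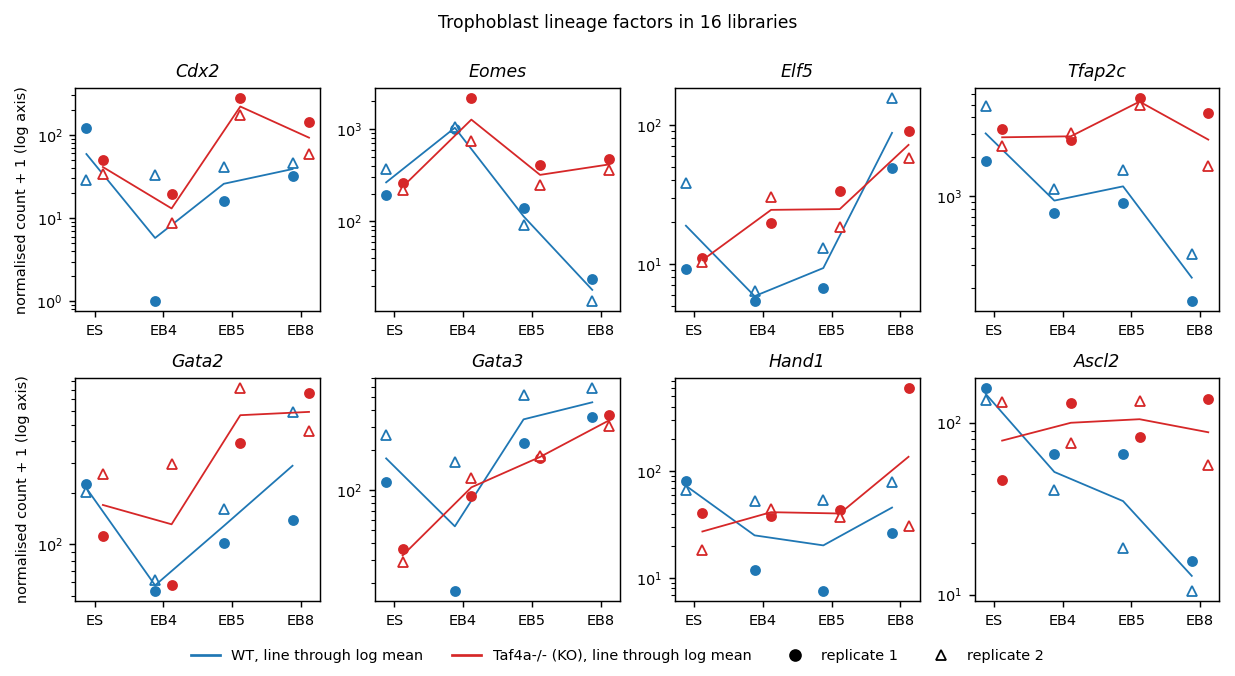
Normalised counts plus 1 (log axis, with its own range in each panel) of the 8 trophoblast lineage factors by stage, 1 point per library, WT in blue and KO in red, with circles for replicate 1, triangles for replicate 2 and lines through the means of the log values. Cdx2, Eomes, Tfap2c and Ascl2 ended at EB8 with both KO libraries above both WT libraries, though Cdx2 was not called. The points of Elf5, Gata2, Gata3 and Hand1 overlapped there.

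Eomes, a T-box factor needed for trophoblast stem cells and again in the primitive streak, showed the widest range of group means among the members, with a ratio of 81.0 between the highest and the lowest group. In ES cells it was at 190.2 and 366 in WT and at 258 and 217 in KO. At EB4 it was at 1002 and 1064 in WT and at 2158 and 741 in KO. Both genotypes were therefore at their highest before retinoic acid, and the groups overlapped. At EB5 the values were 139 and 91.1 in WT and 409.6 and 247 in KO. By EB8 they were 23.1 and 12.7 in WT and 471 and 362 in KO. The KO libraries were above the WT libraries at both stages after retinoic acid, and the lowest KO value at EB8 was above both WT values at EB5. The log2 change between KO and WT was 1.49 (SE 0.49, adjusted p = 0.109) at EB5 and 4.51 (SE 0.49, adjusted p = 0.000127) at EB8. At EB8 the call held under each alternative run and without any single library, with log2 changes of 4.10 to 4.92 when a library was left out. Of the 7 pairs of neighbours in the order of the group means, 3 did not overlap. These were WT EB4 above KO EB8, KO ES above WT EB5 and WT EB5 above WT EB8. For each member this order was set by the same values, and no share over all genes was computed for such pairs.

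Tfap2c encodes an AP-2 factor of the trophectoderm that is also needed by primordial germ cells, the precursors of sperm and eggs. It had the highest level per kilobase of exon among the members in 7 of the 8 groups, reaching 1438 ± 122 normalised counts per kilobase (SD, n = 2) in KO EB5. In ES cells it was at 1875 and 4862 normalised counts in WT and at 3285 and 2421 in KO. At EB4 it was at 751 and 1144 in WT and at 2699 and 3051 in KO. At EB5 it was at 894 and 1586 in WT and at 5606 and 4973 in KO. From EB4 on, each KO library was above each WT library, while in ES cells the KO libraries lay inside the WT range. At EB8 it was at 157.5 and 361 in WT and at 4289 and 1709.7 in KO. The log2 change was 1.63 (SE 0.52, adjusted p = 0.0854) at EB4, 2.15 (SE 0.52, adjusted p = 0.0401) at EB5 and 3.50 (SE 0.52, adjusted p = 0.000717) at EB8. The call at EB5 was narrow. It was lost when any of the 4 libraries was left out, with adjusted p-values of 0.114 to 0.278, and in edgeR (adjusted p = 0.0527). The call at EB8 held under each alternative and without any single library, with log2 changes of 2.84 to 4.16 when a library was left out. In the order of its 8 group means, 3 of the 7 neighbouring pairs did not overlap: KO EB5 lay above WT ES, KO ES above WT EB5, and WT EB4 above WT EB8.

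Ascl2 encodes a basic helix-loop-helix factor of the diploid trophoblast and the spongiotrophoblast, and its gene is imprinted. It was at 158 and 135 in WT ES cells and at 45.7 and 132 in KO ES cells. At EB4 it reached 64.7 and 39.7 in WT, against 129.7 and 75.3 in KO. The values at EB5 were 64.9 and 17.6 in WT and 81.5 and 132 in KO. Each KO library was thus above each WT library at EB4 and EB5, after the opposite order in ES cells. At EB8 Ascl2 had fallen to 14.7 and 9.53 in WT, against 136 and 55.4 in KO. The log2 changes were 0.95 (SE 0.68, adjusted p = 0.444) at EB4, 1.58 (SE 0.68, adjusted p = 0.211) at EB5 and 2.77 (SE 0.68, adjusted p = 0.0123) at EB8. The EB8 call was lost without WT EB8 replicate 2 (log2 change 2.49, adjusted p = 0.083) and without KO EB8 replicate 1 (2.13, adjusted p = 0.107). Only WT ES above KO EB5 and WT EB5 above WT EB8 were apart among the 7 neighbouring pairs of groups.

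Cdx2, the homeobox factor that marks the trophectoderm and later the posterior embryo, was read from few molecules in most libraries. It was at 119 and 27.9 in WT ES cells and at 49.0 and 32.9 in KO ES cells. At EB4 WT replicate 1 held 0 reads, which allows up to 3.29 normalised counts, and WT replicate 2 was at 32.2, against 18.7 and 7.66 in KO. Those groups overlapped, and the sign of the EB4 change depended on the test, at 1.18 in limma and at −0.28 in edgeR and −0.29 in DESeq2. At EB5 Cdx2 was at 15.1 and 40.6 in WT and at 276 and 174 in KO. At EB8 it was at 31.5 and 45.5 in WT and at 143 and 58.6 in KO. KO EB5 was the highest group for Cdx2 and stood apart from the next one, KO EB8, while the other 6 neighbouring pairs overlapped. The log2 change at EB5 was 3.09 (SE 1.26, adjusted p = 0.185), with an adjusted p of 0.0436 in DESeq2 and 0.157 in edgeR. At EB8 it was 1.25 (SE 1.26, adjusted p = 0.511).

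Elf5, an ETS factor that holds the trophoblast stem cell state and is also used in mammary and other epithelia, had the lowest level per kilobase in 7 of the 8 groups, while in WT EB8 it lay above Eomes, Ascl2 and Cdx2, at 17.3 against 4.31, 7.52 and 17.0 normalised counts per kilobase. It was at 8.19 and 37.5 in WT ES cells and at 9.96 and 9.29 in KO ES cells. The EB4 values were 4.38 and 5.36 in WT and 18.7 and 29.4 in KO. By EB5 they were 5.65 and 12.1 in WT and 32.2 and 17.5 in KO. Both embryoid body stages up to EB5 thus had each KO library above each WT library, at low levels. The log2 change at EB4 was 2.06 (SE 0.74, adjusted p = 0.119) and at EB5 1.41 (SE 0.74, adjusted p = 0.306). At EB8 Elf5 was at 48.3 and 155 in WT and at 88.6 and 56.5 in KO. The EB8 libraries of the genotypes overlapped, with a log2 change of −0.29 (SE 0.74, adjusted p = 0.815), and both KO libraries lay inside the WT range. Neighbouring groups were apart for KO EB8 above KO EB5 and for WT EB5 above WT EB4, 2 pairs of 7.

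Gata3, a zinc finger factor that acts beside Cdx2 in the trophectoderm and is also used in the neural tube, was the member whose KO values lay below WT at EB5. In ES cells it was at 114 and 259.9 in WT and at 34.9 and 27.9 in KO. Each KO library was below each WT library, with a log2 change of −2.43 (SE 0.79, adjusted p = 0.252), and DESeq2 gave an adjusted p of 0.0218. At EB4 it was at 16.4 and 162 in WT and at 88.8 and 121 in KO. The WT pair at EB4 differed by a ratio of 9.85, so that leaving out WT EB4 replicate 2 gave a called log2 change of 2.59 (adjusted p = 0.0481) and leaving out WT EB4 replicate 1 gave −0.64. At EB5 it was at 224 and 514 in WT and at 174 and 178 in KO, with each KO library below each WT library. The log2 change there was −0.94 (SE 0.79, adjusted p = 0.541). At EB8 Gata3 was at 355 and 587 in WT and at 363 and 305 in KO, with a log2 change of −0.46 (SE 0.79, adjusted p = 0.723). Neighbouring groups were apart only for KO EB8 above WT ES and KO EB5 above KO EB4.

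Gata2, a related zinc finger factor of trophoblast giant cells, blood progenitors and neural tube interneurons, was at 224 and 200.1 in WT ES cells and at 111 and 256 in KO ES cells. At EB4 it was at 52.6 and 61.1 in WT and at 57.2 and 294 in KO. The EB5 values were 101 and 160.3 in WT and 392 and 817 in KO. EB5 was the only stage at which its KO libraries were both above both WT libraries, with a log2 change of 2.15 (SE 0.77, adjusted p = 0.135) and an adjusted p of 0.0279 in DESeq2. At EB8 Gata2 was at 139 and 591 in WT and at 764 and 458 in KO, and the groups overlapped (log2 change 1.04, SE 0.77, adjusted p = 0.359). Of its neighbouring groups, only WT EB5 above WT EB4 was apart.

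Hand1, a basic helix-loop-helix factor that drives trophoblast giant cells and is also expressed in mesoderm and heart, was decided by a single library at EB8. It was at 79.2 and 65.4 in WT ES cells and at 39.8 and 17.2 in KO ES cells. At EB4 WT had 11.0 and 51.5 and KO 37.4 and 43.4. At EB5 WT had 6.59 and 52.7 and KO 42.7 and 35.9. Both KO embryoid body groups lay inside the WT range up to EB5. At EB8 it was at 25.2 and 78.3 in WT, while the KO libraries were at 600.3 and 29.8. The KO EB8 pair differed by a ratio of 20.1, the widest replicate ratio among the members where both libraries held reads. The log2 change at EB8 was 1.58 (SE 1.24, adjusted p = 0.391), and it became 3.72 (adjusted p = 0.0483) without KO EB8 replicate 2 and −0.56 without KO EB8 replicate 1. Hand1 lies on chromosome 11, whose genes had a median log2 level, relative to each gene's mean, of 0.18 to 0.28 in the replicate 1 libraries of KO and of −0.13 to 0.03 in the other 12 libraries. The part of this in the Hand1 values was not tested. All 7 neighbouring pairs of groups overlapped.

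The promoters of Eomes and Ascl2 are shown because these genes were called at EB8, and that of Cdx2 because it was the member with the largest log2 change at EB5. Each window runs from 250 bases before to 50 bases after the transcription start in RefSeq (GRCm38.p6), was found once in build NCBI37 and is written 5′ to 3′ on the strand of the gene, with motif matches in capitals. RefSeq windows were matched for 6 of the 8 members. The windows lie at chr9:118387057-118387356 on the plus strand for Eomes, at chr7:150155120-150155419 on the minus strand for Ascl2 and at chr5:148118776-148119075 on the minus strand for Cdx2 (NCBI37).
Eomes: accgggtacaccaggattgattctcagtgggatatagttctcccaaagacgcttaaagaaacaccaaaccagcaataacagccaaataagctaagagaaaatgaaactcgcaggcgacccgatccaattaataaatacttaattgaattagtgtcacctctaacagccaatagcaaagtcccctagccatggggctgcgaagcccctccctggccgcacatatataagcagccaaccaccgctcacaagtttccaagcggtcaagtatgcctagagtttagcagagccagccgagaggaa
Ascl2: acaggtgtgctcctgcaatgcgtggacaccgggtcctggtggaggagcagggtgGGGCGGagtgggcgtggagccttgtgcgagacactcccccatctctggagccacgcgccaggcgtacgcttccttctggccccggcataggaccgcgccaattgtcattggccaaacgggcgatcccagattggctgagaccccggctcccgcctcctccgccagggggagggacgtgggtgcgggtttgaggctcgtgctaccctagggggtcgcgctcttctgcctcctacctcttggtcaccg
Cdx2: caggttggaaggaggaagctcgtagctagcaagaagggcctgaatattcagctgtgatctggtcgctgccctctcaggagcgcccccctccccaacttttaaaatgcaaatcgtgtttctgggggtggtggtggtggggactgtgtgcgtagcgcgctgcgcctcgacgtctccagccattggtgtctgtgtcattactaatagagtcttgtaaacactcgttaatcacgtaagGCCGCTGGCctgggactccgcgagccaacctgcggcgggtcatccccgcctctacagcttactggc
The 4 motifs searched, each on both strands, were the TATA box with the letters TATAAA, the AP-2 site bound by factors such as Tfap2c with the letters GCCNNNGGC, the GATA factor site with the letters AGATAA, and the GC box with the letters GGGCGG. The Eomes window held none of these exact letters, the Ascl2 window held 1 GC box starting at position −196 from the transcription start, and the Cdx2 window held 1 AP-2 match starting at position −16. Variants of these letters were not searched, such as the stretch tatataag in the Eomes window, so no match there does not mean no TATA box. Of 32851 promoter windows of the same length in the RefSeq table, 13.62% held the TATA box, 16.59% the AP-2 site, 11.18% the GATA factor site and 35.66% the GC box. Such matches describe the letters only.

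Between KO and WT ES cells all 8 members had a log2 change below 0, from −2.43 for Gata3 to −0.10 for Tfap2c, with a median of −0.67 against −0.00 over all tested genes. None was called in limma or edgeR, where 0% of all tested genes were called, and DESeq2 called Gata3, against 3.27% of genes. At an unadjusted p under 0.05 limma gave 1 member, Gata3, against 11.4% of genes. Both KO libraries were below both WT libraries for Gata3, Hand1 and Ascl2, against 20.7% of genes, and above them for no member, against 19% of genes. Without WT ES replicate 2 the log2 changes were 0.31 for Eomes, 0.21 for Elf5 and 0.59 for Tfap2c, so the shared direction did not hold without that library. The other 5 members stayed below 0, with −1.83 for Gata3 (adjusted p = 0.608). The feeder fibroblast list had a lower sum in KO ES cells. Its 8 genes summed to 1062 to 2663 normalised counts in WT ES cells and 221 to 522 in KO ES cells, with 0 of the 6 tested genes called. The tested genes had log2 changes of −3.04 to 0.12, with a median of −2.15. Without WT ES replicate 2, the library with the higher sum, that median was −1.06. Col1a1 was at 662 and 1451 in WT and 119 and 170.1 in KO, while the fibroblast marker Lum was at 0 to 0.910 in the ES libraries. The same list summed to 2105 to 2773 in WT EB8 and to 877 to 3147 in KO EB8. The part of the feeder list in the values of the members was not tested.

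At EB4, before retinoic acid, all 8 members had a log2 change above 0, from 0.29 for Eomes to 2.06 for Elf5, with a median of 1.08 against −0.00 over all tested genes. For Cdx2 this sign depended on the test and the pseudocount set its size, since WT replicate 1 held 0 reads. Its mean was 13.2 in KO and 16.1 in WT, edgeR and DESeq2 gave −0.28 and −0.29, and limma gave 0.35 with a pseudocount of 5 and 2.75 with one of 0.1. None was called in limma, against 6.12% of genes, or in edgeR, against 5.03%, while DESeq2 called Tfap2c, against 13.4% of genes. An unadjusted p under 0.05 in limma was reached by Elf5 and Tfap2c, 2 of 8 members against 22.7% of genes. The KO libraries were both above both WT libraries for Elf5, Tfap2c and Ascl2, against 25.3% of genes, and below them for no member, against 26.6% of genes. The signs of Cdx2, Gata3 and Hand1 turned without WT EB4 replicate 1, and that of Eomes without KO EB4 replicate 1.

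**Figure D2:**
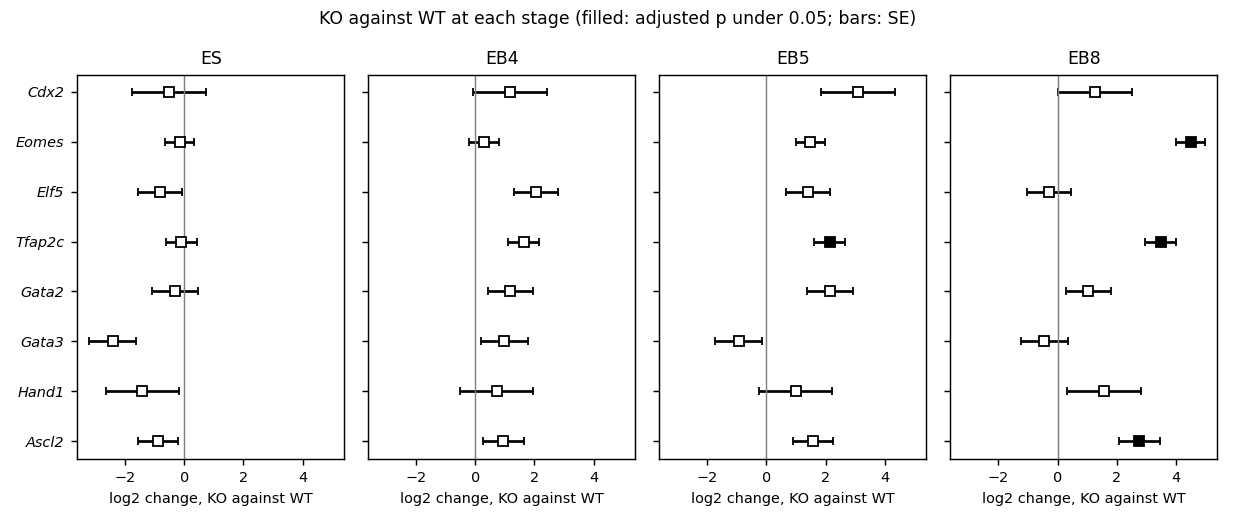
Log2 change between KO and WT on the log2(normalised count + 1) scale for each member at ES, EB4, EB5 and EB8, with bars for 1 SE from limma and filled squares for adjusted p under 0.05. All 8 squares lie left of 0 in ES cells and right of 0 at EB4, although Eomes, Elf5 and Tfap2c in ES cells were above 0 without WT ES replicate 2 and Cdx2 at EB4 was below 0 in edgeR and DESeq2. The filled squares are Tfap2c at EB5 and Eomes, Tfap2c and Ascl2 at EB8.

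A day after retinoic acid, at EB5, 7 of the 8 members had a log2 change above 0 and Gata3 had one below it, with a median of 1.54 against −0.01 over all genes. Tfap2c was called higher in KO by limma, 1 of 8 members, where 4.34% of genes were called and 2.17% were called higher. The edgeR test called 0 of the 8 members, against 3.74% of genes, and DESeq2 called Cdx2, Eomes, Tfap2c and Gata2, 4 of 8 against 10.7% of genes. Both KO libraries were above both WT libraries for 6 members, namely Cdx2, Eomes, Elf5, Tfap2c, Gata2 and Ascl2, against 26.7% of genes. They were below for Gata3, against 28.1% of genes. Without WT EB5 replicate 1 the log2 change of Hand1 turned to −0.42.

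At EB8 Eomes, Tfap2c and Ascl2 were called higher in KO, 3 of 8 members, where 22.9% of all tested genes were called and 10.4% were called higher. No member was called lower. The edgeR and DESeq2 tests each called the same 3 members, against 22% and 28.7% of genes. Both KO libraries were above both WT libraries for Cdx2, Eomes, Tfap2c and Ascl2, against 30.4% of genes, and below them for no member, against 33.5% of genes. The members ranged from −0.46 for Gata3 to 4.51 for Eomes, with a median log2 change of 1.42 against −0.03 over all genes. The 5 members that were not called had SEs of 0.74 to 1.26, which limits the size of change that these libraries can show.

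Within WT, Eomes rose from ES to EB4 by a log2 change of 1.96 (SE 0.49, adjusted p = 0.0196) and Tfap2c fell by 1.70 (SE 0.52, adjusted p = 0.0438), 2 called members of 8 against 16.5% of genes. The other 6 members had changes of −3.36 to −1.51, and limma called none of them, while DESeq2 called Gata2 as well (adjusted p = 0.0441). Without WT ES replicate 2 the change of Eomes was 2.43 (adjusted p = 0.0223) and that of Tfap2c −1.02 (adjusted p = 0.266), and the other 6 ran from −4.38 to −0.65. Within KO, Eomes rose by 2.41 (SE 0.49, adjusted p = 0.0254), the 1 called member against 3.5% of genes, while the change of Tfap2c was 0.02 (SE 0.52, adjusted p = 0.989). The Eomes rise was also lost in WT without WT ES replicate 1 or without either WT EB4 library (adjusted p = 0.0684 to 0.11), and in KO without either KO ES library or without KO EB4 replicate 1 (adjusted p = 0.104 to 0.174). The fall of Tfap2c in WT was lost without either WT EB4 library as well (adjusted p = 0.0829 and 0.189).

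Over the first day of retinoic acid Eomes fell in WT by 3.18 on the log2 scale (SE 0.49, adjusted p = 0.00298), the 1 called member against 3.73% of genes, and this held without any single library. In KO no member was called by limma, against 2.51% of genes. Eomes had a change of −1.99 there (SE 0.49, adjusted p = 0.058), which edgeR called (adjusted p = 0.047), 1 of 8 members against 2.26% of genes. DESeq2 called Eomes and Cdx2 in KO, 2 of 8 against 6.43% of genes. With a term for the replicate numbers of each genotype, added after seeing the data, limma called Eomes in KO (adjusted p = 0.0239), against 4.49% of genes, and Eomes and Gata3 in WT (adjusted p = 0.00125 and 0.00994), against 5.69%. Cdx2 had the largest change of the members in KO, 4.07 (SE 1.26, adjusted p = 0.121). In WT its change of 2.17 (SE 1.26, adjusted p = 0.493) rests on the EB4 library with 0 reads, and Eomes and Gata3 had larger values (−3.18 and 2.67). An unadjusted p under 0.05 in KO was reached by Cdx2, Eomes and Gata2, 3 of 8 against 16.3% of genes.

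From EB5 to EB8, 3 members changed in WT, where 10.4% of genes were called. Eomes fell by 2.65 on the log2 scale (SE 0.49, adjusted p = 0.00552) and Tfap2c fell by 2.31 (SE 0.52, adjusted p = 0.0152). Elf5 rose by 3.23 (SE 0.74, adjusted p = 0.0162). The Eomes and Elf5 calls were lost without WT EB5 replicate 1 or WT EB8 replicate 2 (highest adjusted p = 0.0651 and 0.156), and the Tfap2c call without WT EB5 replicate 2 or WT EB8 replicate 1 (highest adjusted p = 0.124). In KO no member was called by limma, against 0.738% of genes, by edgeR, against 0.515%, or by DESeq2, against 4.18%, and none reached an unadjusted p under 0.05, against 12.8% of genes. The KO changes ran from −1.24 for Cdx2 to 1.76 for Hand1, with 0.37 (SE 0.49) for Eomes, −0.96 (SE 0.52) for Tfap2c and 1.53 (SE 0.74) for Elf5.

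**Figure D3:**
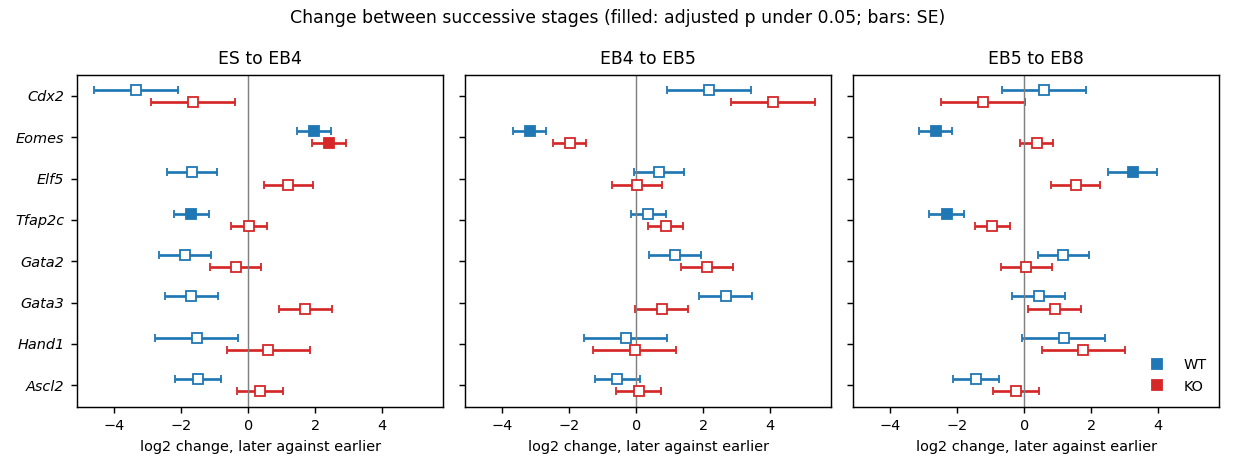
Log2 change of each member from one stage to the next within WT (blue) and within KO (red), with bars for 1 SE from limma and filled squares for adjusted p under 0.05. Eomes moves right in both genotypes from ES to EB4 and left in both from EB4 to EB5, and from EB5 to EB8 the only filled squares are the WT values of Eomes, Elf5 and Tfap2c.

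The difference between the genotypes in these steps was tested directly as an interaction. From ES to EB4 the difference was above 0 for all 8 members, from 0.45 for Eomes to 3.40 for Gata3, and without WT ES replicate 2 it was above 0 for 7, from −0.02 for Eomes to 2.81 for Gata3. None was called by limma (lowest adjusted p = 0.57) or edgeR, each against 0% of genes, or by DESeq2, against 0.723%, and 3 members, Elf5, Tfap2c and Gata3, had an unadjusted p under 0.05 in limma, against 7% of genes. These differences share the ES libraries with the comparison of KO and WT in ES cells. From EB4 to EB5 they ran from −1.91 for Gata3 to 1.91 for Cdx2, and no member was called by limma or edgeR, against 0% of genes, or by DESeq2, against 0.0248%, or reached an unadjusted p under 0.05, against 2.96%. From EB5 to EB8 Eomes had a difference of 3.02 (SE 0.70, adjusted p = 0.079), the change being −2.65 in WT and 0.37 in KO. No member was called by limma, against 0.781% of genes, or by edgeR, against 0.695%, and DESeq2 called Eomes (adjusted p = 0.00325), against 3.03% of genes. Eomes was also the 1 member with an unadjusted p under 0.05 in limma, against 9.72% of genes, and the 1 called with a term for the replicate numbers of each genotype (adjusted p = 0.0335), against 1.41%.

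The members varied more between replicates than most genes. The median absolute log2 difference between the replicates of a group was 0.50 to 1.09 over the members and 0.25 to 0.44 over all tested genes. In WT, replicate 2 was above replicate 1 for 4, 7, 6 and 6 of the 8 members at ES, EB4, EB5 and EB8, and in KO for 2, 5, 3 and 0, while in each group 45.8% to 52.4% of all tested genes were higher in replicate 2. The 8 differences in KO EB8 ran from −4.29 for Hand1 to −0.25 for Gata3 on the log2 scale. The members did not move as a block across the 16 libraries either. Pearson correlations of their log2 values were highest for Tfap2c with Ascl2 (0.75), Elf5 with Gata2 (0.69) and Eomes with Ascl2 (0.68), and lowest for Eomes with Gata3 (−0.51), over points that share stages, libraries and depth.

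Among all tested genes, the profiles most like those of the members over the 16 libraries were those of Phf19, Slc7a9 and Zap70 for Tfap2c (Pearson r of 0.96, 0.96 and 0.94) and of 2410141K09Rik, Slc44a4 and Gm17699 for Ascl2 (0.93, 0.92 and 0.92). For Eomes they were Efr3a, Zfp518a and Usp53, each at 0.91. For Elf5 they were Oaz2 (0.92), Trp63 (0.91) and Dcaf7 (0.91), and for Gata3 they were Mid2 (0.93), Nuak1 (0.92) and Gng12 (0.91). Gata2 was nearest to Enpp4 (0.90), 6030419C18Rik (0.89) and Hoxa10 (0.87), and Cdx2 to Prokr2 (0.87), 6330439K17Rik (0.82) and Bcl2l2 (0.82). Hand1 had the least similar partners, AI836003 (0.83), Camkk2 (0.77) and Esx1 (0.76). Esx1 is itself a homeobox gene of the placenta. Hand1 was at 600.3 in KO EB8 replicate 1 and at 79.2 or less in the other libraries. Its correlations were not run without that library. No member was among the 3 nearest genes of another member.

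Other trophoblast genes were read beside the members. Of 14 further genes of trophoblast stem cells and trophectoderm, Esrrb, an orphan nuclear receptor shared by trophoblast and embryonic stem cells, was higher in KO at EB4 (log2 change 2.22), EB5 (2.37) and EB8 (4.35, adjusted p = 1.44e-05). At EB8 3 of the 14 were called higher in KO than in WT, Esrrb, Tead4 (1.23) and Klf5 (1.13). The 1 called lower was Id2 (−1.62), and the list median was −0.25. Of all tested genes 22.9% were called there and 10.4% were called higher. At EB4 and EB5 the list had 1 called gene lower each, Wwtr1 (−0.88) and the FGF receptor gene Fgfr2 (−1.70). Of all tested genes limma called 6.12% at EB4 and 4.34% at EB5. The keratin genes Krt7, Krt8 and Krt18, which mark the trophectoderm epithelium, were not called at EB8, at log2 changes of 0.60, −0.29 and −0.47. Their KO EB8 replicates 1 and 2 were far apart, at 2813 and 469, 8370 and 2874, and 8366 and 2863. In WT EB8 they were at 1014 and 566, 7530 and 4795, and 8925 and 5120. In ES cells none of the 14 was called, where limma called 0% of all tested genes, and their median was −0.32.

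The markers of differentiated trophoblast ranged from abundant to barely detected. Of 14 listed genes 13 were matched, 7 passed the filter and 6 did not. Of the 7, the imprinted gene Peg10 was abundant throughout, at 11115 to 83130 normalised counts, and the envelope gene Synb, of the syncytiotrophoblast, was at 38.9 to 585. Among the other 6, the giant cell hormone gene Prl3d1 reached at most 2.20 normalised counts in any library, Prl3b1 1.10, Prl3d2 0.715, Prl2c2 4.24 and Ctsq 7.69, while the spongiotrophoblast marker Tpbpa reached 9.88. At EB8 Gcm1, the factor of the syncytiotrophoblast, was at 122 and 37.3 in KO and at 3.15 and 12.7 in WT (log2 change 3.19, adjusted p = 0.0158). Dlx3, a homeobox gene of placenta and skin, was at 1375 and 428 in KO and at 89.3 and 216 in WT (2.46, adjusted p = 0.0119). These 2 of 7 were called higher in KO than in WT at EB8 and none lower, with a median of 1.83. Of all tested genes 22.9% were called there and 10.4% were called higher. No gene of the list was called at ES, EB4 or EB5, where the medians were −1.19, 0.31 and 1.15. Of all tested genes limma called 6.12% at EB4 and 4.34% at EB5. At ES limma called 0% of all tested genes.

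**Figure D4:**
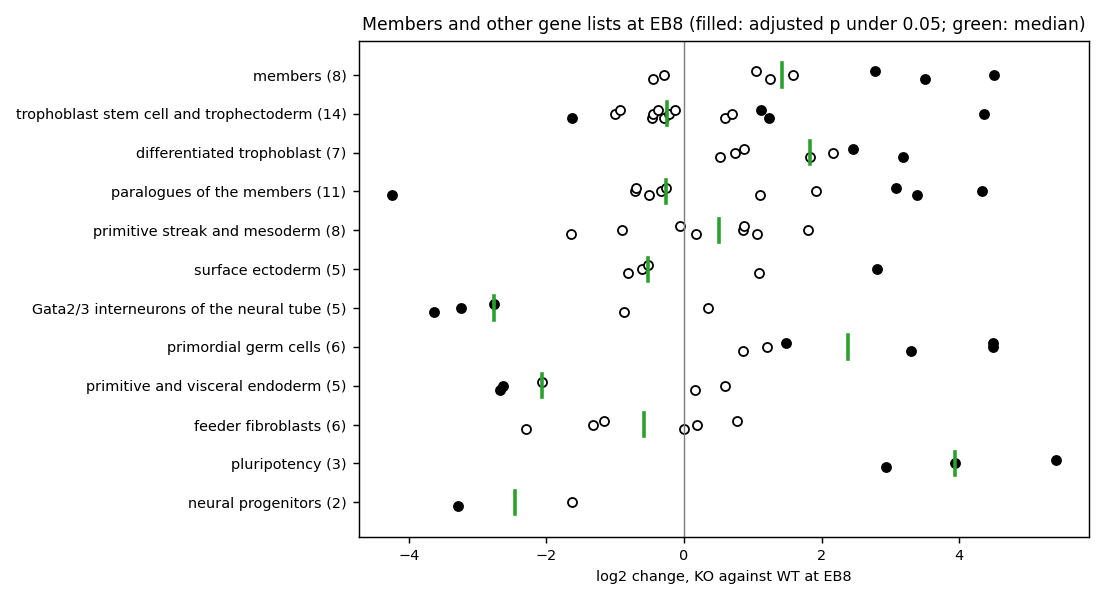
Log2 change between KO and WT at EB8 for the 8 members and for the tested genes reported here from 11 other lists (number of genes in parentheses), 1 point per gene, filled at adjusted p under 0.05, with a green line at the median of each list. The members have a median of 1.42, the pluripotency genes of 3.94, the primordial germ cell genes of 2.39 and the interneuron genes of −2.76.

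Relatives of the members differed between KO and WT in both directions at EB8. Of 11 tested paralogues reported here, Cdx1 (4.33, adjusted p = 0.000565), Gata1 (3.38) and Elf3 (3.09) were higher in KO. Tfap2b (−4.24, adjusted p = 0.0178) was lower, and the other 7 were not called. Of all tested genes 22.9% were called there and 10.4% were called higher. Tfap2b is an AP-2 factor of neural crest and neural tissue. Elf3 was also higher at EB4 (1.83) and EB5 (2.49). Elf3 and Elf5 are separate rows of the table, and so are Cdx1 and Cdx2.

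Lists for the other tissues that use these genes were read at the same stages. Of all tested genes limma called 6.12% at EB4, 4.34% at EB5 and 22.9% at EB8. At EB8 10.4% were called higher. The 8 tested genes of primitive streak and mesoderm, where Eomes also acts, had no call at any stage, with a median of 0.51 at EB8. At ES limma called 0% of all tested genes. Among 6 genes of primordial germ cells, where Tfap2c also acts, Prdm14 (4.49), Dppa3 (4.49), Dazl (3.30) and Kit (1.48) were called higher in KO than in WT at EB8. None was called lower, and Prdm1 (1.20) and Nanos3 (0.86) were not called. Prdm14 and Dppa3 were already higher at EB4 (2.95 and 2.90), and Prdm14 and Nanos3 at EB5 (2.86 and 2.12). The list summed to 7079 to 8639 normalised counts in KO EB8 and 2024 to 2471 in WT EB8. In ES cells it summed to 3406 to 4812 in KO and to 2526 to 7310 in WT. Prdm14 was at 777 and 859 in KO ES and at 372 and 323 in KO EB8. Dppa3 was at 2069 and 862 in KO ES and at 1399 and 659 in KO EB8. Kit was at 1353 and 1069 in KO ES and at 5260 and 4895 in KO EB8. Dazl was at 68.1 and 118 in KO ES and at 982 and 747 in KO EB8. The pluripotency genes Nanog, Pou5f1 and Zfp42 were all higher in KO at EB8 (log2 changes of 5.41, 3.94 and 2.93) and summed to 12190.2 to 13880.1 in KO against 552 to 697 in WT. Of the 3, Nanog was called at EB5 (2.69) and none at EB4. They and the called germ cell genes were higher in KO at EB8, as were Eomes, Tfap2c and Ascl2. Their part in the values of those members was not tested.

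Of 5 tested genes listed for neural tube interneurons that use Gata2 and Gata3, 3 were called lower in KO than in WT at EB8. The log2 changes were −3.64 for the transporter gene Slc32a1, −3.24 for the enzyme gene Gad1 and −2.76 for Lhx3. Foxn4 (−0.87) and Tal1 (0.35) were not called there, so the list did not move in 1 direction. The KO level of the interneuron factor Foxn4 was above WT by 1.64 at EB4 and 2.28 at EB5 (log2). Of 5 tested surface ectoderm genes, Grhl3 was higher at EB4, EB5 and EB8 (1.59, 1.76 and 2.80) and Grhl2 at EB4 (0.82). At EB8 the other 4 were not called, among them Grhl2 at −0.61. The list ran from −0.81 to 2.80 there, with a median of −0.52. Of 5 tested genes of primitive and visceral endoderm, those called lower in KO than in WT were Cubn (−4.24) and Dab2 (−2.30) at EB4, Cubn (−3.68) at EB5 and Sox17 (−2.68) and Foxa1 (−2.63) at EB8, and none was called higher. Of the 2 neural progenitor genes tested, Pax6 was lower in KO than in WT at EB5 (−3.25) and EB8 (−3.29), while Nes had −1.63 at EB8 and was not called. In ES cells no gene of these lists was called, where limma called 0% of all tested genes. The shares called at EB4, EB5 and EB8 were 6.12%, 4.34% and 22.9%.

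In the annotation of build NCBI37 all 8 members were protein-coding genes. Cdx2 lies at chr5:148112381-148118846, Eomes at chr9:118387330-118395250, Elf5 at chr2:103251845-103291146, Tfap2c (annotated there as Tcfap2c) at chr2:172375093-172384122 and Gata2 at chr6:88143885-88157024. Gata3 lies at chr2:9778705-9811661, Hand1 at chr11:57642207-57646320 and Ascl2 at chr7:150152727-150155169. Gata3 was the one member with overlapping genes, 3 in all, and these reached at most 20.0 normalised counts in any library. With strand not stated for the counting, reads over the 155 exon bases that Gata3 shares with the opposite-strand gene Gm13256 cannot be assigned to either. Gata3 also shares 77 exon bases with the same-strand gene 9230102O04Rik, where no strand setting separates the reads.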

How the data were processed

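Poly-A RNA libraries of 16 samples were sequenced single-end. Per the labels and the submitters' processing notes, the authors used TopHat2 2.0.10 on mm9 (NCBI37), HTSeq 0.5.4p3 and DESeq2 1.0.19, and annotation release, strand setting and filters are not given in the sources used here. The deposited table holds normalised signal for each gene, that is its reads over 1 size factor per library. In each library 100% of values were whole multiples of a step of 0.715 to 1.28 (relative tolerance 1e-06), so whole reads were recovered.

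Groups came from the sample titles. limma 3.58.1 (eBayes with trend) was fitted to log2(normalised count + 1) with 8 group means over 16 libraries, for 16124 genes with a mean of at least 10, with Benjamini-Hochberg adjustment and a threshold of 0.05. The shared spread had 8 residual and 4.27 prior degrees of freedom. edgeR 4.0.16 (quasi-likelihood) and DESeq2 1.42.0 were run on the recovered reads. The floor of detection was set at 3 reads and covers counting error only. Positions came from GENCODE (NCBI37), which held 27603 of the identifiers and lacked 204, and promoters from RefSeq. The fits were tested on simulated data.

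The members and gene lists were chosen with earlier results of these data known. From each list up to 2 genes called higher and 2 called lower were to be named, and for each member its 3 most correlated genes. Of the paralogue list, 1 gene is not reported here. The further calls, the keratins, Nes and the markers near the floor were named after their values were seen. Alternatives were pseudocounts of 0.1 and 5, no filter, a mean of at least 50, upper-quartile and quantile scaling, edgeR, DESeq2, replicate blocks, a fit of only the compared groups, and leaving out each library.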

Additional observations from a re-analysis of the deposited data

How the results depend on the processing

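Of the comparisons between KO and WT, the count of called members at EB8 stayed at 3 under each alternative, and was 2 to 4 when a library was left out. The count at ES, 0 in limma, was 1 in DESeq2. That at EB4, 0 in limma, was 1 in DESeq2 and 0 to 1 without single libraries. That at EB5, 1 in limma, was 4 in DESeq2, 0 in edgeR, without a filter, in the fit of only the compared groups and when any of the 4 libraries was left out. The causes were not tested. Equal counts can rest on different members, as from ES to EB4 in WT without WT EB4 replicate 2. The count from ES to EB4 in WT, 2, was 3 in DESeq2, 1 without a filter and with quantile scaling and 0 to 2 without single libraries, and that in KO, 1, was 0 to 1. The count from EB4 to EB5 in WT, 1, was 1 to 3 without single libraries, and that in KO, 0, was 2 in DESeq2, 1 in edgeR, with a pseudocount of 5 and with quantile scaling, and 0 to 1 without single libraries. From EB5 to EB8 the WT count, 3, was 1 to 2 without single libraries. The interaction from EB5 to EB8, 0 in limma, was 1 in DESeq2.

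For Cdx2 at EB4 the sign turned in edgeR (−0.28) and DESeq2 (−0.29). Without single libraries the signs of these members turned, with ranges of the log2 change in ES cells of −1.55 to 0.51 for Cdx2, −0.63 to 0.31 for Eomes, −1.86 to 0.21 for Elf5, −0.79 to 0.59 for Tfap2c and −0.92 to 0.27 for Gata2. At EB4 they were −1.35 to 3.71 for Cdx2, −0.48 to 1.06 for Eomes, −0.64 to 2.59 for Gata3 and −0.35 to 1.79 for Hand1. At EB5 Hand1 ran from −0.42 to 2.40, and at EB8 Elf5 from −1.12 to 0.54 and Hand1 from −0.56 to 3.72. Upper-quartile scaling moved the median of all genes at EB8 from −0.03 to 0.11.

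In the embryoid bodies the replicate numbers did not pair WT with KO. The correlation of replicate differences across genotypes was −0.06, −0.21 and −0.13 at EB4, EB5 and EB8, and 0.33 at ES. The differences of WT ES correlated with those of KO EB4, EB5 and EB8 at 0.28, 0.37 and 0.06. Within a genotype the same numbers deviated together, at 0.23 to 0.42 between the KO stages and 0.52 to 0.61 between the WT embryoid bodies, but at −0.18 to −0.05 between WT ES and the WT embryoid bodies. With the replicate block the count of called members was 2 from EB4 to EB5 in WT, 1 in KO, and 1 for the interaction from EB5 to EB8 (Eomes, adjusted p = 0.0487 in limma), and the block changed no other count. With the KO numbers exchanged, a pairing chosen after seeing the data, the replicate block gave 1 at EB4, 2 from EB4 to EB5 in WT and 1 in KO. With a replicate block within each genotype, also added then, the counts were 2 at EB4 (Elf5 and Tfap2c), 2 at EB5 (Eomes and Tfap2c), 2 from EB4 to EB5 in WT and 1 in KO, 3 from ES to EB4 in WT and 1 for the interaction from EB5 to EB8, and it moved no other count. For KO against WT that block takes the spread between same-numbered series out of the error, so those 2 counts rest on fewer sources of spread.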
